A study of Oryza sativa with 40 samples.

Results

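CBL-interacting protein kinases (CIPK) are the plant kinases that calcineurin B-like (CBL) calcium sensors switch on, and their transcripts were followed here over 36 h in leaves of rice. Genes were taken by name: the symbol in the array annotation, or a synonym in RefSeq, had to be OsCIPK or OsCBL followed by a number. For each gene 1 probe set was used, that with the highest mean signal over all 40 arrays. RefSeq names 30 OsCIPK genes, and 24 of them had a probe set among the 57194 rice probe sets of the array. OsCIPK03, OsCIPK09, OsCIPK13, OsCIPK15, OsCIPK27 and OsCIPK33 had none and were not analysed here. No gene carried a name of the form OsCBL. RefSeq writes these sensors as CBL with a number, and the 7 of 9 such genes that had a probe set are described after the kinases, as a set added once the names had been read.

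All samples were leaves of the japonica cultivar Nipponbare under a cycle of 12 h light and 12 h dark, with light from 8 h to 20 h. The study labels its samples at 8 h and 32 h as the end of night and those at 20 h and 44 h as its start. Seedling leaves came from 17-day-old plants kept in a greenhouse at 28 °C in the light and 25 °C in the dark. Flag leaves, the last leaves below the panicle, came from 3-month-old plants that grew in the field under natural conditions and were then entrained in a greenhouse at 32 °C in the light and 30 °C in the dark. Each tissue was sampled at 10 time points, every 4 h from 8 h to 44 h after the midnight before sampling, with 2 biological replicates and 1 array per sample, which gave 20 arrays per tissue. Tissue, plant age, temperature and growth history differed together, and their parts in any difference between the 2 leaf types cannot be told apart.

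CBL proteins bind calcium through EF hands and, once loaded, attach to a short motif in the regulatory domain of a CIPK, which frees the kinase and places it at the plasma membrane or at the vacuole. The pairs carry calcium signals of drought, salt, cold, low potassium and changing nitrogen supply to ion channels and transporters. In rice, OsCIPK23 with OsCBL1 activates the potassium channel OsAKT1, and OsCIPK24, the rice SOS2, works with OsCBL4, the rice SOS3, on sodium export. Calcium levels in plant cells themselves follow the time of day.

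Array medians ran from 50.5 to 68.2 for seedlings and from 48.8 to 64.4 for flag leaves, and replicate arrays of a time point correlated at 0.962 to 0.99 and at 0.976 to 0.988, respectively, lowest at 40 h in seedlings and at 12 h in flag leaves. All 5 leaf markers measured, RCAA1, CAB2R, RCABP89, OsPSAG and RBCS, were high in both tissues, with signals that summed to between 37806 and 128376 per seedling array and between 75460 and 230249 per flag leaf array. Of 3 flower genes, MADS1 had a median of 225 in flag leaves, whereas all 3 stayed under a median of 100 in seedlings, and the flower signals summed to between 51.4 and 142 per seedling array and between 176 and 662 per flag leaf array. Of 3 seed storage genes, 2 had medians of at least 100 in both tissues, and the 3 together reached 2703 to 5299 per seedling array and 4128 to 7390 per flag leaf array. Both tapetum genes, OsC6 and RTS, stayed under a median of 100 in both tissues. The part of these signals in the differences between tissues given later was not tested. In leaf RNA, fewer cells of a type and less RNA per cell cannot be told apart.

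The daily course was tested on log2(signal + 32) with limma, as a cosine of 24 h fitted to the 20 arrays of a tissue, and p-values were adjusted by Benjamini-Hochberg over every probe set whose mean signal was 100 or more. The amplitude is the distance from the middle to the peak of the fitted cosine on this log2 scale, and it understates changes of low signals because of the constant 32. A rhythm was called for 18 of the 21 CIPK genes tested in seedlings and for 20 of 22 tested in flag leaves, where 42.9% of 24298 and 69.4% of 23376 probe sets were called, respectively. When 1 replicate was left out, 9 or 10 CIPK genes were called in seedling leaves, where 12.2% or 14.9% of all probe sets were, respectively. The seedling calls lost when either replicate was left out were those of OsCIPK02, OsCIPK05, OsCIPK11, OsCIPK14, OsCIPK16, OsCIPK19 and OsCIPK26. That of OsCIPK06 was lost without replicate 1, and those of OsCIPK17, OsCIPK25 and OsCIPK31 without replicate 2. The CIPK genes tested were brighter than most: their median mean signal over 40 arrays was 1752, against 707 for all probe sets tested, and 18 of 22 lay above the latter. The median amplitude of the CIPK genes was 0.45 in seedlings and 1.24 in flag leaves, whereas all probe sets tested had medians of 0.24 and 0.43. The amplitude was larger in flag than in seedling leaves for 17 of 21 CIPK genes, and for 79.9% of all probe sets fitted in both tissues. Rhythms called in both tissues were found for 16 of 21 CIPK genes, against 36.1% of probe sets. OsCIPK20, with signals of 16.2 to 95.8 in seedlings and of 4 to 100.2 in flag leaves, and OsCIPK30, with at most 32.2 and 30.2, were too dim to be tested. OsCIPK12 was too dim in seedling leaves only.

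**Figure D1:**
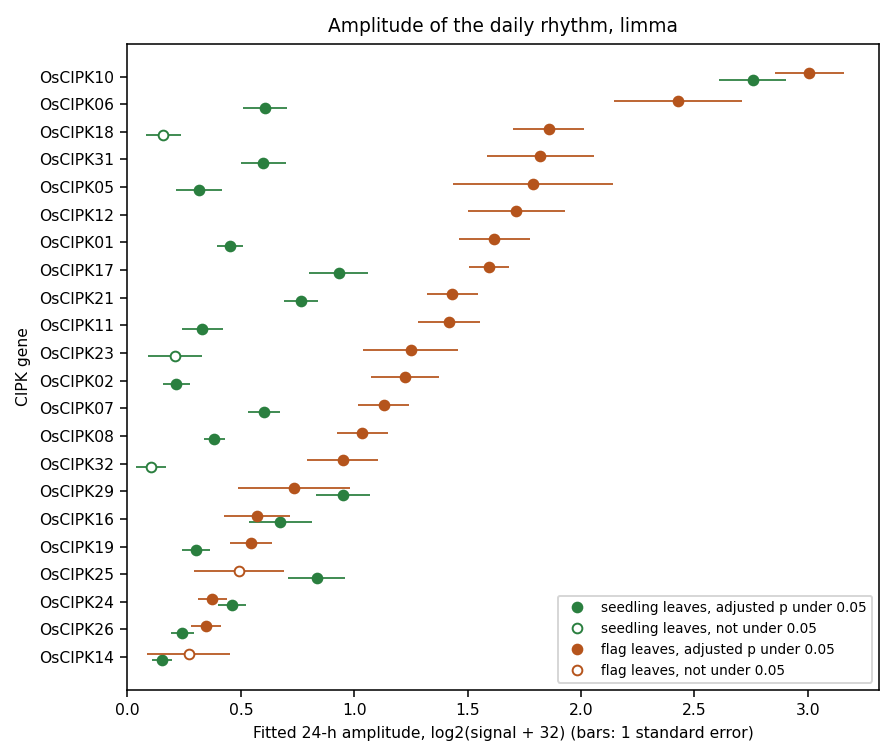
Fitted 24-h amplitude of the CIPK genes on the log2(signal + 32) scale (x axis) with 1 standard error, for seedling leaves in green and flag leaves in orange, 20 arrays each; filled points had an adjusted p under 0.05 in limma. OsCIPK10 led in both tissues, and 17 of the 21 genes fitted in both lay further right in flag leaves.

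OsCIPK10 had the largest rhythm of the family in both tissues. Its replicate signals in seedling leaves were 57.6 and 90.3 at 8 h, 735 and 669.7 at 12 h, 3401 and 3096 at 16 h and 4042 and 3470.0 at 20 h, and they were back at 382 and 324 at 24 h and 56.3 and 58.6 at 32 h. In flag leaves they were 90.8 and 84.8 at 8 h, 5354 and 7333 at 16 h, 3465 and 2942 at 20 h, 376 and 382 at 24 h and 50.7 and 105 at 32 h. On the second day signals were high again, at 2924 and 3057 in seedling and 5523 and 6342 in flag leaves at 40 h. At 16 h and 40 h both flag replicates lay above both seedling replicates, and during the night the tissues had similar low signals. The time point means ran from 57.5 to 3756 in seedlings and from 77.6 to 6343 in flag leaves, and as the lowest lay close to the array medians, no ratio is given. The fitted amplitude was 2.76 ± 0.15 (SE, n = 20) in seedling leaves with a peak at 18.2 ± 0.21 h (adjusted p = 2.53e-10, limma) and 3.01 ± 0.15 (SE, n = 20) in flag leaves with a peak at 17.3 ± 0.20 h (adjusted p = 4.83e-11). By amplitude it ranked 24 of 24298 probe sets in seedlings and 136 of 23376 in flag leaves. The fitted cosines of the tissues differed by 0.73 ± 0.23, a size that joins amplitude and timing (adjusted p = 0.0295), a call that was lost under 8 of 16 other settings, with adjusted p from 0.0523 to 0.418.

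**Figure D2:**
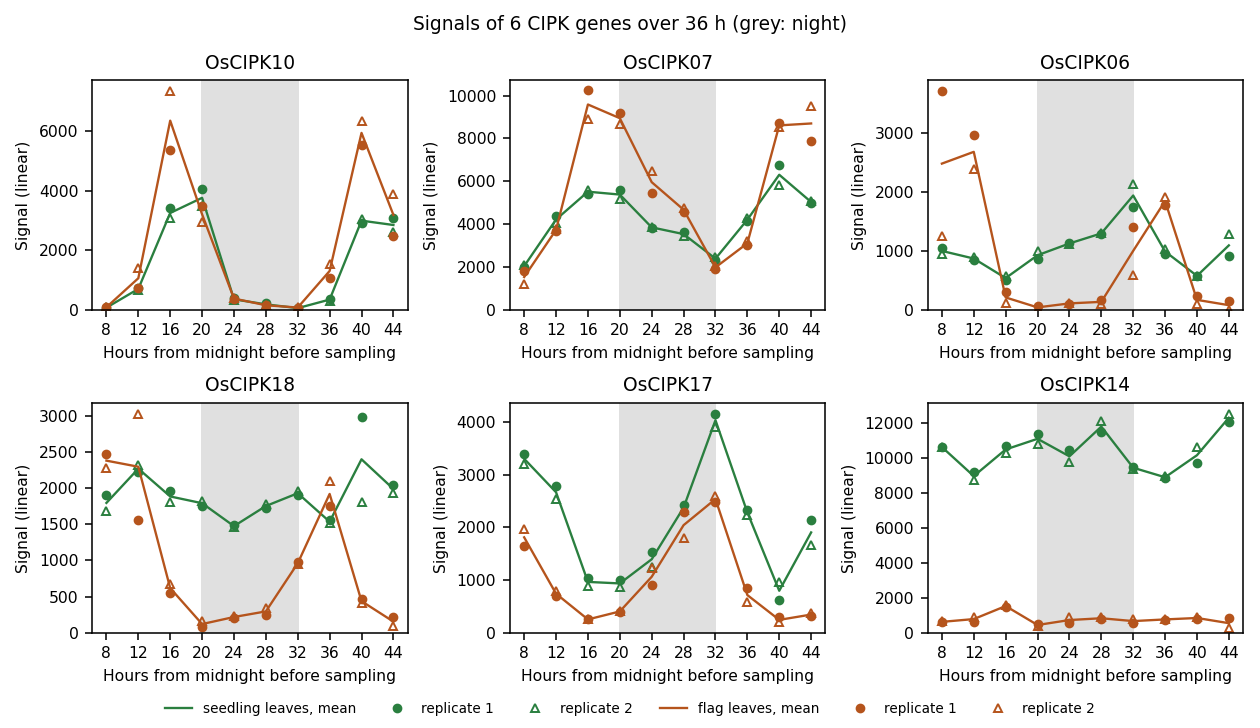
Signals (linear, y axis) of 6 CIPK genes against hours from the midnight before sampling (x axis), with the night in grey; circles and triangles are replicates 1 and 2, lines are their means, and green and orange stand for seedling and flag leaves. OsCIPK10 and OsCIPK07 were high in the afternoon in both tissues, OsCIPK06 and OsCIPK18 were low at 20 h and 44 h in flag leaves, OsCIPK17 was highest at 32 h in both, and OsCIPK14 was high in every seedling array.

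In flag leaves the 20 rhythmic CIPK genes peaked mostly in the light period. Peaks between 8 h and 13 h were fitted for 12 genes, between 13 h and 20 h for 4, and in the dark for 4. A peak in the light was thus found for 16 of 20, against 46.9% of all rhythmic probe sets of flag leaves. In seedling leaves 7 of 18 peaked in the light, against 45.8%. The peak of OsCIPK26 in flag leaves, 8.0 ± 0.80 h, that of OsCIPK08, 8.3 ± 0.45 h, and that of OsCIPK29, 9.1 ± 1.39 h, lay within 1 SE of lights on. Without the 44 h arrays the flag count was 14 of 20.

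**Figure D3:**
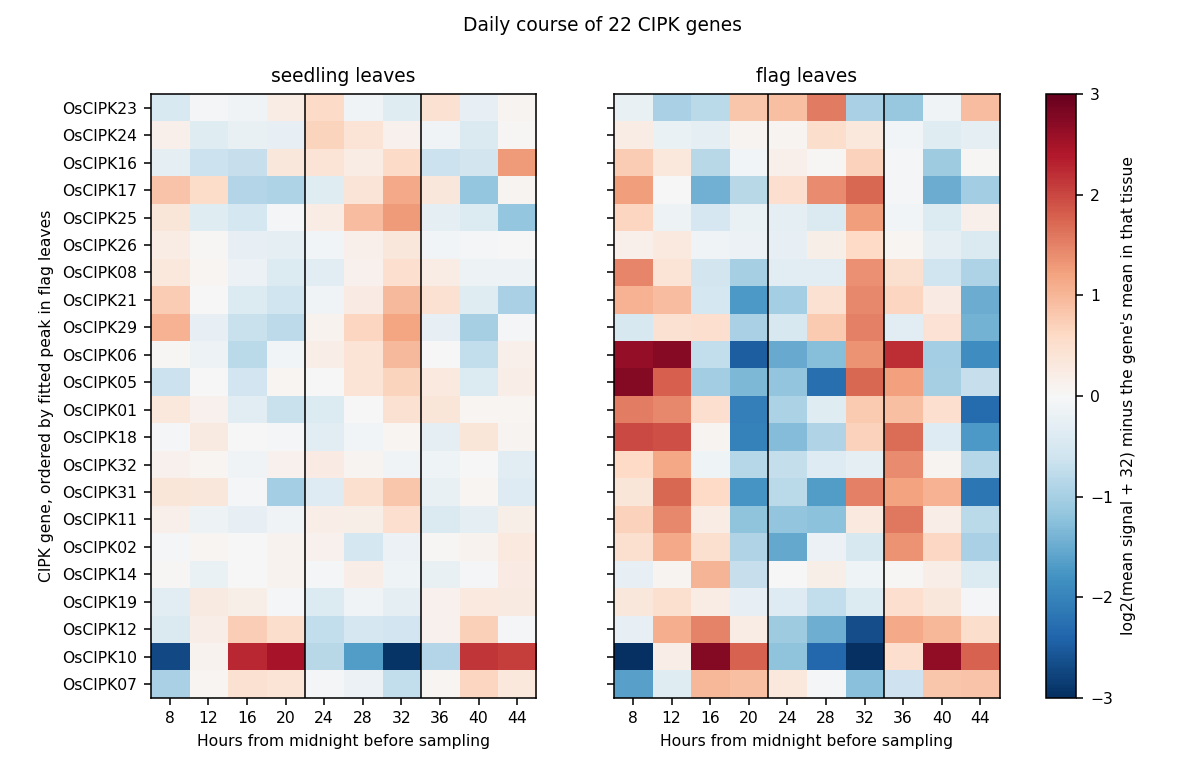
Log2(mean signal + 32) of 22 CIPK genes minus the mean of the gene in that tissue (colour, red high and blue low) at the 10 time points in hours (x axis), for seedling leaves on the left and flag leaves on the right; rows follow the fitted peak in flag leaves and vertical lines bound the night. The band of genes that was red from 8 h to 12 h and again from 32 h to 36 h in flag leaves was pale in seedling leaves, whereas OsCIPK10 had strong colours in both.

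The morning group of flag leaves held OsCIPK01, OsCIPK02, OsCIPK05, OsCIPK06, OsCIPK08, OsCIPK11, OsCIPK18, OsCIPK21, OsCIPK26, OsCIPK29, OsCIPK31 and OsCIPK32. Their flag amplitudes were 0.34 to 2.43 with a median of 1.43, and those of the same genes in seedling leaves were 0.1 to 0.95 with a median of 0.36. The amplitude was larger in flag leaves for 11 of the 12, OsCIPK29 being the exception, and the difference in rhythm passed the test for 10, all but OsCIPK26 and OsCIPK29. Over the whole family it passed for 16 of 22, where 43.2% of 24514 probe sets did. OsCIPK12 passed the signal filter through flag leaves alone, and of the 21 genes fitted in both tissues 15 passed, against 44.8% of probe sets so fitted. With 1 replicate left out, 7 or 9 of the 22 passed, where 13.6% or 16.4% of all probe sets did, respectively. The calls of OsCIPK05, OsCIPK07, OsCIPK08, OsCIPK10, OsCIPK12 and OsCIPK16 were lost when either replicate was left out, that of OsCIPK21 without replicate 1, and those of OsCIPK17, OsCIPK23 and OsCIPK31 without replicate 2.

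OsCIPK06 had the widest swing of this group. Its replicate signals in flag leaves were 3718 and 1255 at 8 h and 2972 and 2402 at 12 h, and they were 307 and 114 at 16 h, 66.2 and 17.2 at 20 h, 174 and 97.9 at 28 h, 1406 and 601 at 32 h, 1785 and 1916 at 36 h and 156 and 3.3 at 44 h. Replicate 1 was well above replicate 2 at 8 h, and no array from 16 h to 28 h reached any array from 32 h to 36 h. In seedling leaves signals ranged from 504 to 2138 with a median of 977, with 860.0 and 997 at 20 h, where both flag replicates were far lower. The amplitude was 2.43 ± 0.28 (SE, n = 20) in flag leaves with a peak at 10.0 ± 0.46 h and 0.61 ± 0.10 in seedling leaves with a peak at 4.6 ± 0.61 h, and the difference in rhythm was 2.41 ± 0.32 (limma, adjusted p = 1.03e-06). The flag signals at 20 h and 44 h lay close to the array medians, which limits the precision of the amplitude.

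OsCIPK18 was rhythmic in flag leaves and not called in seedling leaves. Replicate signals in flag leaves were 2476 and 2280.1 at 8 h, 1562 and 3026 at 12 h, 555 and 678 at 16 h, 78.7 and 159.9 at 20 h, 249 and 339.8 at 28 h, 1744 and 2091 at 36 h and 218 and 89.1 at 44 h. Seedling signals ranged from 1461 to 2984 with a median of 1816, and all arrays but replicate 1 at 40 h lay between 1461 and 2312. At dusk the flag signals thus lay below every seedling signal, and at 8 h above both seedling signals of that hour. At 32 h, the same clock hour on the second day, the order was reversed, with 975 and 944 in flag and 1897 and 1958 in seedling leaves. The amplitude was 1.86 ± 0.16 (SE, n = 20, adjusted p = 2.62e-08) against 0.16 ± 0.08 (adjusted p = 0.237), and the difference in rhythm was 1.77 ± 0.18 (adjusted p = 7.43e-09). The highest time point mean of flag leaves was 19.9 times the lowest.

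OsCIPK05 was highest in flag leaves at 8 h, which the study labels as the end of night. Its replicate signals there were 16883 and 15937 at 8 h and 7614 and 9364 at 12 h, stood at 1558 and 739 at 16 h and 697 and 257 at 28 h, and were 8760.3 and 7366 at 32 h. In seedling leaves they were 3721 and 4169 at 8 h and 10227 and 9406 at 32 h, so that the 2 mornings differed in this tissue, and the lowest of all seedling arrays, 3721, was higher than any flag array from 16 h to 28 h. The difference in rhythm was 1.75 ± 0.39 (adjusted p = 0.0015), and with replicate 1 or replicate 2 left out its adjusted p was 0.0671 and 0.114. The seedling rhythm of OsCIPK05, 0.31 ± 0.10 (adjusted p = 0.0459), was not called under 8 other settings.

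OsCIPK31, known as OsCK1 and as a kinase whose transcript responds to light, sugars and stress, reached 9669 and 10019 at 12 h in flag leaves and was at 778 and 912 at 20 h, 683 and 1145 at 28 h, 7727 and 9422 at 32 h and 785 and 477 at 44 h. In seedling leaves it ranged from 1281 to 5209 with a median of 2639.7, highest at 32 h with 5209 and 4587 and lowest at 20 h with 1367 and 1281. Both tissues were low at 20 h, and the flag range was wider at both ends. The amplitude was 1.82 ± 0.24 with a peak at 11.6 ± 0.48 h in flag leaves and 0.60 ± 0.10 with a peak at 8.0 ± 0.69 h in seedling leaves (SE, n = 20), and the difference in rhythm was 1.54 ± 0.27 (adjusted p = 1.22e-04, and 0.0618 without replicate 2).

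OsCIPK11 was dim in seedling leaves, with signals of 101 to 278 with a median of 171, and reached 705 and 1349 at 12 h and 982 and 1303 at 36 h in flag leaves, where the night values were 141 and 139 at 24 h and 146 and 120.3 at 28 h. Both flag signals lay below both seedling signals at 20 h, 24 h and 28 h and above them at 6 other time points. The fitted peak was at 3.2 ± 0.98 h in seedling and 11.8 ± 0.35 h in flag leaves, and the difference in rhythm was 1.64 ± 0.17 (adjusted p = 1.16e-08). Its probe set may also match transcripts of related genes, as its name on the array carries the suffix for shared probes.

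OsCIPK01, with the highest single signals of the family, was at 18493 and 18781 at 8 h and 17759.7 and 17397 at 12 h in flag leaves and at 1730.4 and 1333 at 20 h and 1434 and 1139 at 44 h, 14.5 times between the highest and the lowest mean. Seedling signals were lowest at 20 h as well, with 4213 and 4260.1, but the ratio was 2.2. The fitted peaks, 9.0 ± 0.54 h in seedling and 10.5 ± 0.38 h in flag leaves, lay close together, and the difference in rhythm was 1.21 ± 0.18 (adjusted p = 5.52e-06). OsCIPK21 was similar, with flag means of 883 at the highest and 69.2 at the lowest time point against 987 and 231 in seedling leaves, and a difference in rhythm of 0.78 ± 0.14 (adjusted p = 1.36e-04). OsCIPK08 had its peak at 8.3 h in either leaf type, its amplitudes being 0.38 ± 0.05 and 1.04 ± 0.11, and for OsCIPK32 the flag amplitude was 0.95 ± 0.16 against 0.10 ± 0.07 in seedling leaves, where no rhythm was called. OsCIPK26 had a small rhythm in both tissues, 0.24 ± 0.05 and 0.34 ± 0.07, and its flag rhythm was not called without replicate 2.

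OsCIPK02 and OsCIPK29 are neighbouring genes on chromosome 7 with no annotated gene between them, and their courses differed in seedling leaves. OsCIPK29 was at 1724 and 1984 at 32 h and 317 and 450.1 at 40 h there, with an amplitude of 0.95 ± 0.12 and a peak at 5.3 ± 0.49 h (adjusted p = 1.19e-05). OsCIPK02 was nearly flat in seedling leaves, from 3977 to 8081 with a median of 6412, with an amplitude of 0.22 ± 0.06 and a peak at 17.5 ± 1.08 h (adjusted p = 0.0195). That call was lost without replicate 1 and without replicate 2 (adjusted p = 0.246 and 0.216) and with another of its probe sets. In flag leaves OsCIPK02 was at 6012 and 11425 at 12 h, 1258 and 1425 at 24 h and 9256 and 11146 at 36 h, with an amplitude of 1.22 ± 0.15 and a peak at 12.1 ± 0.45 h. The flag rhythm of OsCIPK29, 0.73 ± 0.25 (adjusted p = 0.0393), was not called when replicate 1, replicate 2 or the 44 h arrays were left out (adjusted p = 0.0567, 0.441 and 0.155). Flag signals of OsCIPK29 were 282 and 470 at 8 h, 897 and 593 at 12 h, 1745 and 1402 at 32 h and 424 and 407 at 36 h. The same clock hours thus differed between the days, and its place in the morning group rests on the fitted cosine alone. The probe set of OsCIPK02 carries the suffix for probes that can bind unrelated transcripts, and another of its probe sets had a different flag course, given below.

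The afternoon group of flag leaves held OsCIPK10, OsCIPK07, OsCIPK12 and OsCIPK19. OsCIPK07, which in rice is linked to chilling tolerance, was at 1832 and 1229 at 8 h, 10261 and 8904 at 16 h, 9194 and 8691 at 20 h and 1902 and 2062 at 32 h in flag leaves. In seedling leaves it was at 1992 and 2088 at 8 h, 5411 and 5615 at 16 h, 5580.4 and 5178 at 20 h and 2306 and 2473 at 32 h. The troughs of the 2 tissues were close, a little lower in flag leaves, and the flag peak was higher. The peak was fitted at 18.0 ± 0.47 h and 19.6 ± 0.41 h, and the difference in rhythm was 0.63 ± 0.14 (adjusted p = 0.00121). That call was lost without replicate 1 and without replicate 2 (adjusted p = 0.0741 and 0.138) and with its other probe set (adjusted p = 0.171), whose amplitude was larger in seedling leaves. OsCIPK19 had a small rhythm in both tissues, 0.30 ± 0.06 with a peak at 15.3 h and 0.54 ± 0.09 with a peak at 13.8 h, and its difference in rhythm, 0.29 ± 0.11, had an adjusted p of 0.0813.

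OsCIPK12, which raises drought tolerance in rice when overexpressed, was at 1317 and 1492 at 12 h, 1629 and 2050.4 at 16 h and 1180.1 and 1692 at 36 h in flag leaves and at 199 and 222 at 28 h and 78.8 and 67.8 at 32 h. Seedling signals had a median of 79.4 and reached 209, with 154 and 182 at 16 h and 27.0 and 51.8 at 24 h. At all 10 time points both flag signals lay above both seedling signals, and the smallest gap was at 32 h. The flag amplitude was 1.71 ± 0.21 (SE, n = 20) with a peak at 15.96 ± 0.45 h (adjusted p = 3.80e-06). Seedling signals were near the array medians, and OsCIPK12 passed the filter over all 40 arrays through flag leaves alone, so its tests between tissues are not read. OsCIPK30, its neighbour on chromosome 1 with no annotated gene between them, stayed at or under 32.2 in every array.

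The dark group held OsCIPK17, OsCIPK16, OsCIPK24 and OsCIPK23. OsCIPK17 was highest at the end of the night in both tissues, with 4156 and 3905 in seedling and 2484 and 2586 in flag leaves at 32 h, and low in the afternoon. At 16 h it was at 1041 and 885 in seedling leaves and at 252 and 251 in flag leaves. Its amplitude was 0.93 ± 0.13 with a peak at 7.0 ± 0.58 h in seedling leaves and 1.60 ± 0.09 with a peak at 5.4 ± 0.21 h in flag leaves, and the difference in rhythm was 0.84 ± 0.17 (adjusted p = 6.33e-04, and 0.153 without replicate 2). OsCIPK16 had amplitudes of 0.67 ± 0.14 and 0.57 ± 0.14 with peaks at 1.0 h and 5.2 h, and its flag rhythm was not called without replicate 1. OsCIPK16 lies next to OsCIPK27 on chromosome 9, which had no probe set, and its own probes carry the suffix for unrelated matches.

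OsCIPK24, the kinase of the SOS pathway of salt tolerance, had a small rhythm in both tissues. Seedling signals were 1299.7 to 3158 with a median of 1742 and flag signals 1139.9 to 2371 with a median of 1462, highest at 24 h with 3158 and 2448 in seedling leaves and at 28 h with 2049 and 2371 in flag leaves. The amplitude was 0.46 ± 0.06 with a peak at 2.7 ± 0.47 h and 0.37 ± 0.06 with a peak at 4.1 ± 0.62 h, and the difference in rhythm was 0.18 ± 0.08 with an adjusted p of 0.211. The flag rhythm (adjusted p = 1.24e-04) had an adjusted p of 0.0696 without replicate 2.

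OsCIPK23, the activator of potassium uptake through OsAKT1, gave changes of different size with its 2 probe sets. With the brighter one, seedling signals were 2431 to 7579.9 with a median of 4411, highest at 24 h with 7579.9 and 5700.2, and replicate 1 was above replicate 2 at all 10 time points. Flag signals were 219 to 3559 with a median of 710.3, with 1914 and 895 at 20 h, 3559 and 1106 at 28 h and 444 and 219 at 36 h. The flag amplitude was 1.25 ± 0.21 with a peak at 0.0 ± 0.61 h (adjusted p = 1.17e-04), the seedling amplitude was 0.21 ± 0.12 (adjusted p = 0.334), and the difference in rhythm was 1.08 ± 0.25 (adjusted p = 0.00278, and 0.0555 without replicate 2). The other probe set gave signals of 2365 to 3513 in seedlings and of 1624 to 2797 in flag leaves, amplitudes of 0.21 and 0.30, and a difference in rhythm of 0.13 (adjusted p = 0.175). Both probe sets placed the flag peak between 0 h and 2 h.

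No rhythm was called for OsCIPK14 and OsCIPK25 in flag leaves. OsCIPK25 was highest at 32 h in both tissues, with 11068 and 10463 in seedling and 16474 and 10909 in flag leaves, and its seedling amplitude was 0.83 ± 0.13 with a peak at 5.1 ± 0.58 h (adjusted p = 1.00e-04). In flag leaves replicate 1 exceeded replicate 2 at 9 of 10 time points, with 9877 and 2894 at 44 h, and the amplitude was 0.49 ± 0.20 (adjusted p = 0.0912). With the replicate number as a block its adjusted p was 0.034, without replicate 1 it was 0.0429, and without the 44 h arrays it was 0.0473. OsCIPK14 changed little over the day in seedling leaves, 0.15 ± 0.04 (adjusted p = 0.0262). Any change over the 10 time points, tested without a cosine, was called for 20 of 21 CIPK genes in seedling leaves, all but OsCIPK32, and for 21 of 22 in flag leaves, all but OsCIPK25, against 59.9% and 64.9% of probe sets. With the replicate block both passed, with adjusted p of 0.0116 and 0.00395.

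**Figure D4:**
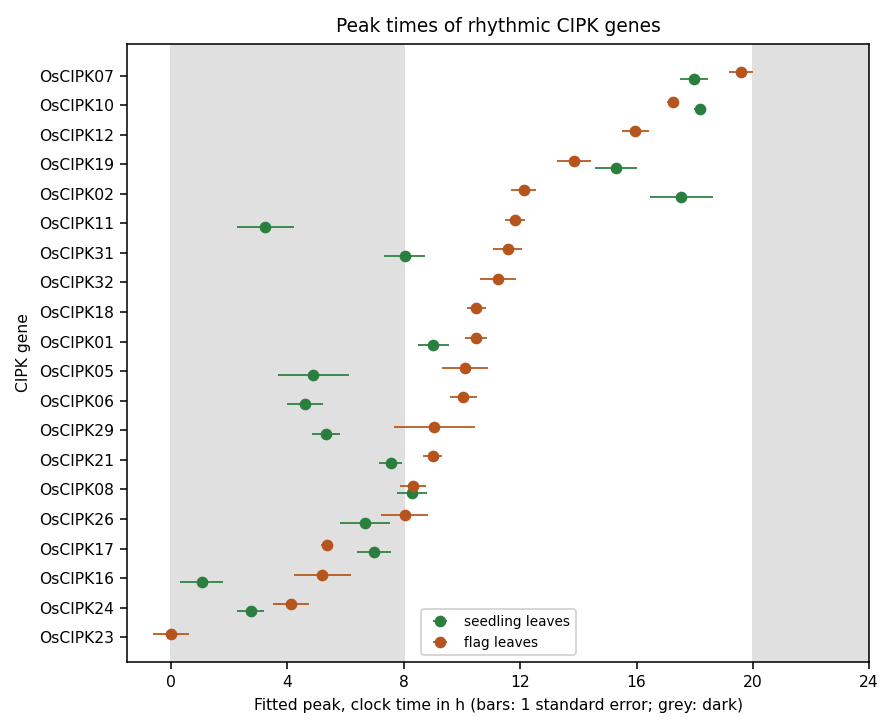
Fitted peak times in h of the clock (x axis, with 1 standard error and the dark in grey) of the 20 CIPK genes rhythmic in flag leaves, for flag leaves in orange and, where a rhythm was called, seedling leaves in green. Of the 16 genes with both points, 12 peaked later in flag leaves.

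Of the 16 genes rhythmic in both tissues, 12 peaked later in flag than in seedling leaves and 4 earlier, with a median shift of 1.45 h. Over all 7852 probe sets rhythmic in both, the median shift was -0.77 h. Peaks lay within 2 h of each other for 9 of 16, against 53.1% of probe sets. In the morning group, 9 of the 10 genes with a seedling rhythm peaked later in flag leaves, 5 of them by more than 2 h: OsCIPK05, OsCIPK06, OsCIPK11, OsCIPK29 and OsCIPK31. This group was chosen by its flag peak, and no share of probe sets chosen in the same way was computed, so these counts are a description only. The seedling rhythms of OsCIPK05 and OsCIPK11 and the flag rhythm of OsCIPK29 were not called when either replicate was left out. Timing and size were tested together, as one difference of the cosines, so no test of the shift alone was made.

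By a cross-correlation criterion modelled on that of the study, with p of at most 0.05 against a 24-h cosine in each replicate and a correlation of at least 0.5 between replicates, 12 of 24 CIPK genes were diurnal in seedlings and 15 of 24 were diurnal in flag leaves, where 9.4% and 18.8% of 57194 probe sets were. Many of those probe sets were dim. With a mean signal of at least 100 required, 21.3% of 24298 and 43.7% of 23376 probe sets were diurnal, and 11 and 15 CIPK genes were. In both tissues 9 genes were called: OsCIPK01, OsCIPK07, OsCIPK08, OsCIPK10, OsCIPK12, OsCIPK17, OsCIPK21, OsCIPK24 and OsCIPK31. OsCIPK12 was among them although its seedling signals were too dim for limma. A light-time peak was found for 12 of the 15 in flag leaves, against 44.9% of probe sets. When the cross-correlation p was adjusted by Benjamini-Hochberg, no CIPK gene passed in seedlings, whereas 6 did so in flag leaves. Of all 57194 probe sets, 0.369% passed in seedlings and 7.55% in flag leaves.

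The mean level over the 10 time points differed between the tissues for 19 of 22 CIPK genes, 8 higher and 11 lower in flag leaves. Over all probe sets 77.3% differed, 39.5% higher and 37.7% lower. Without OsCIPK12, 18 of 21 genes fitted in both tissues differed, against 75.1% of probe sets so fitted. The errors of these levels treat replicate arrays as independent, although arrays with the same replicate number deviated together. The standard errors and p-values of all level differences given here, also those of other gene lists, may therefore be too small. The signal ranges of the 20 arrays per tissue did not overlap for 1 of the 24 genes, OsCIPK14, against 4.2% of all rice probe sets and 9.31% of those with a mean signal of 100 or more. OsCIPK14 had signals of 8756 to 12545 with a median of 10541 in seedlings, and in flag leaves its signals were 245 to 1602 with a median of 764. The level was 13.8-fold lower in flag leaves on the log2(signal + 32) scale (-3.79 ± 0.09, SE, adjusted p = 2.78e-22, limma). OsCIPK14 acts with OsCIPK15 in defence responses of rice, and the 2 genes are near-identical copies. OsCIPK15 had no probe set of its own, so its transcripts may be counted in this signal.

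OsCIPK23 was lower in flag leaves by 2.55 ± 0.16 on the log2 scale (adjusted p = 8.18e-14), a 5.84-fold difference, and both flag signals lay below both seedling signals at 9 of 10 time points. Its other probe set gave a difference of -0.35 in the same direction (adjusted p = 2.03e-09). Next came OsCIPK18 with -1.65 ± 0.09, OsCIPK06 with -1.42 ± 0.17, OsCIPK05 with -1.40 ± 0.13 and OsCIPK17 with -1.25 ± 0.06. For OsCIPK17 both flag signals were below both seedling signals at all 10 time points, whereas for OsCIPK06 and OsCIPK05 the order depended on the hour. The flag mean of OsCIPK06 was above the seedling mean at 8 h, 12 h and 36 h and below it at 32 h and the other 6 time points, and that of OsCIPK05 was above it at 8 h and 12 h and below it at the other 8, the second morning included. Without replicate 2 the level difference of OsCIPK06 was -0.90 and that of OsCIPK05 was -1.10. Neither was called in that fit, whose error held the differences in course between the tissues.

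For OsCIPK12, brighter in flag leaves at every time point, no fold is given, since its seedling signals were near the array medians. Its second probe set had flag signals of 31.7 to 578 and seedling signals of 4.6 to 105. Among the genes fitted in both tissues, OsCIPK11 had the largest level difference towards flag leaves with 0.92 ± 0.09 (adjusted p = 1.28e-09), followed by OsCIPK08 with 0.71 ± 0.04 and OsCIPK10 with 0.45 ± 0.08. For OsCIPK08 both flag signals lay above both seedling signals at 9 of 10 time points. OsCIPK19, OsCIPK26, OsCIPK25 and OsCIPK07 were also higher in flag leaves, by 0.25 to 0.44. For OsCIPK25 the adjusted p was 0.0387 (limma), and without replicate 1 the difference was 0.0043. OsCIPK01, OsCIPK16 and OsCIPK31 did not pass, with level differences of -0.07 ± 0.06, -0.0026 ± 0.0837 and 0.11 ± 0.08.

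**Figure D5:**
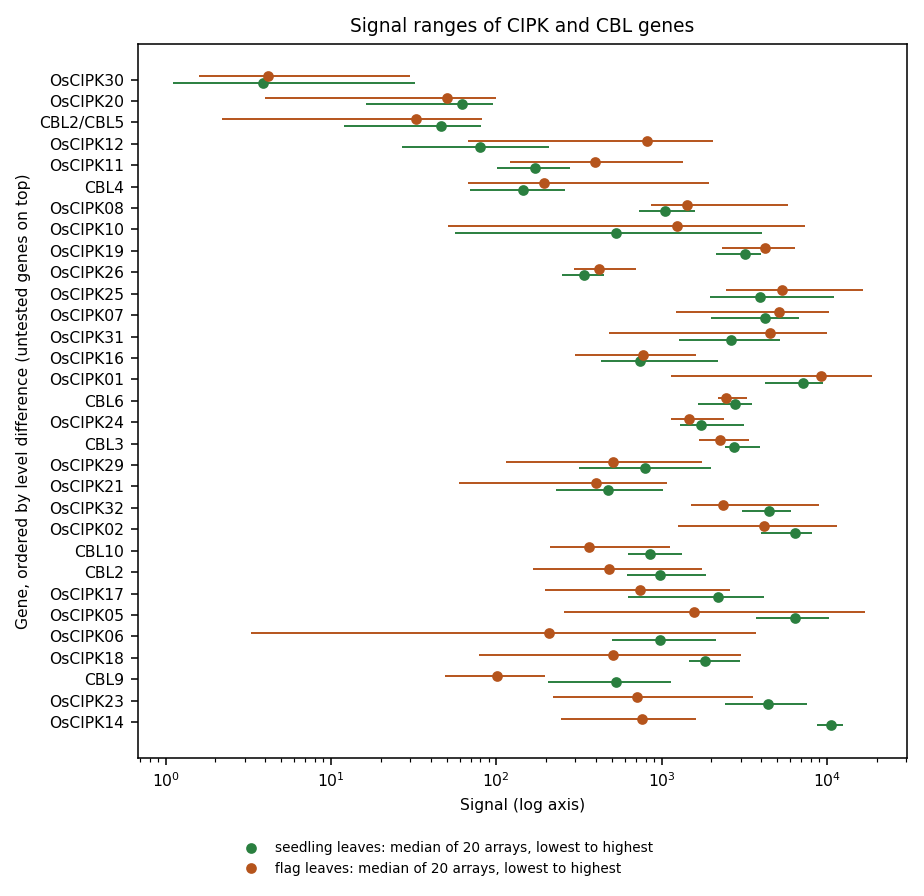
Signals of the CIPK and CBL genes on a log axis (x axis): points are medians of 20 arrays and lines run from the lowest to the highest array, green for seedling and orange for flag leaves; genes follow the level difference, from lower in flag leaves at the bottom, and the 3 genes too dim to test stand on top. Among the kinases only the lines of OsCIPK14 do not overlap, and among the sensors only those of CBL9.

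Several probe sets existed for 7 CIPK genes, and the direction of the level difference depended on the choice for 2 of them. For OsCIPK10 the 4 probe sets gave seedling amplitudes of 2.01 to 2.76 and flag amplitudes of 1.51 to 3.01, all with a flag peak between 17.3 h and 17.5 h, whereas the level difference ran from -0.56 to 0.56. For OsCIPK07 the second probe set was lower in flag leaves, -1.48, where the first was higher, 0.25, and its amplitudes were 1.84 in seedling and 1.55 in flag leaves. The direction of the level difference of OsCIPK10 and OsCIPK07 was therefore not settled by these data. For OsCIPK02 and OsCIPK31, all further probe sets also had a difference in rhythm called. The dimmest probe set of OsCIPK02 had another course in flag leaves, with 378 and 373 at 32 h, 255 and 186 at 36 h and 54.5 and 61.7 at 40 h. The probe set used was at 2942 and 2715, 9256 and 11146, and 5557 and 6671 at these hours. The time of the flag peak of OsCIPK02 thus depended on the probe set.

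The same clock hour on both days, 20 h and 44 h, gave unequal signals for 8 of 21 CIPK genes in seedling leaves, 6 higher and 2 lower at 44 h, where 39.4% of probe sets differed, 15.7% higher and 23.6% lower. OsCIPK17 was at 996 and 873 at 20 h and 2136 and 1667 at 44 h, a difference of 0.99 ± 0.18 (SE, adjusted p = 5.57e-04). OsCIPK16 was at 848 and 1136 at 20 h and at 1695 and 2201 at 44 h, its highest time point, a difference of 0.95 ± 0.18 (adjusted p = 7.77e-04). OsCIPK01, OsCIPK29, OsCIPK31 and OsCIPK19 were higher too, by 0.32 to 0.74. OsCIPK25 was lower, at 4575 and 3892 at 20 h and 1989 and 1957 at 44 h, a difference of -1.08 ± 0.15 (adjusted p = 6.49e-05), and so was OsCIPK32, -0.46 ± 0.17. In flag leaves none of 22 CIPK genes and 0.0299% of probe sets passed this test (limma; 0.0171% higher and 0.0128% lower), 1 CIPK gene had an unadjusted p under 0.05, and with the replicate block no CIPK gene passed either; the contrast of the tissues was not tested. In seedling leaves 5 CIPK genes passed with no filter on dim probe sets, where 15% of 57194 probe sets did. With the replicate block 12 passed, where 52% of probe sets did, and OsCIPK02, OsCIPK08, OsCIPK10 and OsCIPK24 were the genes added. In flag leaves the block raised the share of all probe sets to 0.556%.

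Of the 7 CBL genes measured, the gene that carries both the names CBL2 and CBL5 stayed at or under 81.4 and was not tested. A rhythm was called for 3 of 6 in each tissue, where 42.9% of all probe sets were called in seedling and 69.4% in flag leaves. A difference in rhythm was called for 4 of 6, against 43.2%, and a level difference for 5 of 6, 1 higher and 4 lower in flag leaves, against 77.3%. In seedling leaves 5 of 6 differed between 44 h and 20 h, where 39.4% of probe sets did (15.7% higher and 23.6% lower at 44 h). CBL3, CBL9 and CBL10 were higher at 44 h, by 0.59 to 0.97, and CBL4 and CBL6 lower, by -0.77 and -0.75. In flag leaves none of the 6 differed, against 0.0299%. CBL4, the sensor of the SOS pathway, was at 962 and 1927 at 8 h in flag leaves, 590.4 and 706 at 12 h, 80.3 and 67.5 at 20 h, 97.2 and 75.9 at 28 h and 824 and 975 at 36 h. Seedling signals were 69.6 to 259 with a median of 146. The flag course was thus high from the end of the night to noon, and at 20 h both flag signals were below both seedling signals. The flag amplitude was 1.73 ± 0.21 with a peak at 10.0 ± 0.48 h (adjusted p = 2.30e-06), the seedling amplitude was 0.38 ± 0.11 (adjusted p = 0.0258), and the difference in rhythm was 1.36 ± 0.24 (adjusted p = 1.06e-04). The seedling call was lost with no filter, without the 44 h arrays, without replicate 1 and without replicate 2 (adjusted p = 0.176 and 0.301 for the last 2). OsCIPK24, its partner, peaked at 4.1 h in flag leaves. The level difference of CBL4 was 0.88 ± 0.11 (adjusted p = 3.01e-08, limma). It was not called without replicate 1, in a fit whose error held the differences in course between the tissues.

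CBL2, a sensor of the vacuolar membrane, was highest at 32 h in both tissues, with 1855 and 1633 in seedling and 1607 and 1755 in flag leaves. At 36 h it was at 932 and 939 in seedling leaves and at 202 and 198 in flag leaves. Its amplitude was 0.50 ± 0.06 and 1.17 ± 0.18, the difference in rhythm 0.72 ± 0.20 (adjusted p = 0.0119) and the level difference -1.16 ± 0.05 (adjusted p = 1.16e-16). CBL9 had seedling signals of 205 to 1135 with a median of 530.2 and flag signals of 49.1 to 197 with a median of 101, with no overlap, on probes that carry the suffix for unrelated matches. Ranges without overlap were found for 1 of the 7 CBL genes, against 4.2% of all rice probe sets and 9.31% of those with a mean signal of 100 or more. The lowest flag signals of CBL9 lay near the array medians. Its seedling rhythm was not called without replicate 2, and its flag rhythm was not called (adjusted p = 0.0576, limma). Its level difference was -2.06 ± 0.12 (adjusted p = 9.35e-15) and its difference in rhythm 0.78 ± 0.20 (adjusted p = 0.00674). CBL10 had a flag peak at 9.5 ± 0.66 h, a difference in rhythm of 0.57 ± 0.15 (adjusted p = 0.0105) and a level difference of -0.96 ± 0.07. Its seedling rhythm was called only when the 44 h arrays were left out. CBL3 and CBL6 had no rhythm called in either tissue, with amplitudes of at most 0.20. The difference in rhythm was no longer called for CBL2 without replicate 1 or replicate 2 (adjusted p = 0.245 and 0.177), for CBL10 likewise (0.156 and 0.179), and for CBL9 without replicate 2 (0.341). With the replicate block the flag rhythm of CBL3 had an adjusted p of 0.00669 and the level difference of CBL6, -0.10 ± 0.05, one of 0.00636 (without the block, 0.055).

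Among 8 measured genes for channels, transporters and enzymes that are known or proposed partners of these pathways, a difference in rhythm was called for 5, against 43.2% of all probe sets, and a level difference for 7, 3 higher and 4 lower in flag leaves, against 77.3%. OsAMT1;2, an ammonium transporter, passed the filter through flag leaves alone, and of the 7 genes fitted in both tissues 5 and 6 were called. OsAKT1, the potassium channel opened by OsCIPK23, had signals of 735 to 1627 with a median of 1137 in seedlings and of 198 to 1088 with a median of 586 in flag leaves, a level difference of -0.96 ± 0.07 (adjusted p = 8.95e-12) and peaks at 19.5 h and 15.7 h. OsAKT1 and both probe sets of OsCIPK23 were thus lower in flag leaves. OsHAK1, a potassium transporter, was lower as well, -1.26 ± 0.07. The smallest adjusted p for the difference in rhythm were those of OsrbohB, an NADPH oxidase, with 1.02 ± 0.15 (adjusted p = 5.77e-06), SnRK1A, the energy-sensing kinase, with 0.30 ± 0.06 (adjusted p = 4.19e-04), OsTPC1, a cation channel, with 0.59 ± 0.14 (adjusted p = 0.00357) and OsAMT1;1, another ammonium transporter, with 0.56 ± 0.16 (adjusted p = 0.0165). OsAMT1;1 had the largest amplitude of the 7 tested in seedling leaves and of the 8 tested in flag leaves, 1.23 ± 0.11 with a peak at 9.5 h and 1.43 ± 0.10 with a peak at 8.0 h.

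The other calcium-reading families of rice were tested in the same fits. Calcium-dependent protein kinases (CDPK), in which sensor and kinase are 1 protein, had a rhythm called for 9 of 15 in seedlings, against 42.9% of all probe sets, and for 14 of 16 in flag leaves, against 69.4%, with a median amplitude of 0.17 and 0.61. A difference in rhythm was called for 6 of 16, a share below the 43.2% of all probe sets. Calmodulin-like (CML) sensors had a rhythm called for 8 of 18 in seedlings, a share close to that of all probe sets, for 13 of 15 in flag leaves, and a difference for 13 of 17, with a median amplitude of 0.29 and 0.92. Of the genes fitted in both tissues, 6 of 15 CDPK and 13 of 15 CML had a difference in rhythm, against 44.8%. Of the 4 calmodulin (CaM) genes, none was called rhythmic in seedling leaves (limma; 0 had an unadjusted p under 0.05) and 2 were in flag leaves, against 42.9% and 69.4%. OsCAM61, 1 of these 4, is the same gene on the same probe set as CML1 and is counted in both lists. With the replicate block CAM2 was called in seedling leaves (adjusted p = 0.0247). The CIPK medians, 0.45 and 1.24, were the highest of these families in both tissues, which is a description with no test. The CDPK with the smallest adjusted p for the difference in rhythm were OsCDPK19 (0.79 ± 0.09), OsCDPK20 (0.88 ± 0.14), OsCDPK17 (0.58 ± 0.11) and OsCDPK5 (0.42 ± 0.11), and the CML genes were CML18 (1.95 ± 0.17), CML10 (1.60 ± 0.19), CML30 (1.25 ± 0.18) and CML9 (0.97 ± 0.15). In flag leaves CML18, CML10, CML30 and CML9 peaked at 10.98, 11.2, 10.5 and 1.8 h.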

How the data were processed

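The deposited values are signal intensities, 1 per probe set and array, which the authors computed by MAS5 in GCOS and scaled array by array to a target of 500; they are linear. Nothing more was normalized in the main tests. Signals were read through the series table, 187 control entries were left out, and genes were named from the array annotation and RefSeq (assembly ASM3414082v1). A probe set with 1 gene was required (22436 were so named, 95 had several). The labels write midnight for the samples whose time the study gives as 12 h and 36 h, and the description of every sample names seedling leaves at 8 am, so the tissue was read from the sample titles and the hours from the numbered time points of the study.

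Rhythms, differences in rhythm, mean levels, changes over time and the contrast of 44 h with 20 h were tested with limma 3.58.1 (R 4.3.3, eBayes with trend) on log2(signal + 32). Each test was fitted to every rice probe set whose mean signal was 100 or more and adjusted by Benjamini-Hochberg, with a threshold of 0.05. Rhythm models held linear time, a cosine and a sine of 24 h, and the difference in rhythm is the amplitude of flag cosine minus seedling cosine. Cross-correlation (CC) calls modelled on the study's were computed on linear signals (60 cosines, 100000 random profiles, replicate correlation Cr of at least 0.5) with scipy 1.17.1, pandas 2.3.3 and numpy 2.4.6 under Python 3.11.15. ARSER, its other algorithm, was not used here, and promoter sequences were not analysed here. Scripts were tested on simulated data. Figures were drawn with matplotlib 3.10.9.

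Replicates are 2 biological replicates per time point, so precision is limited by the number of arrays. In each tissue, arrays with the same replicate number deviated together: over 45 pairs of time points their deviations correlated at 0.29 to 0.56 for seedlings and at 0.22 to 0.48 for flag leaves. The numbers were therefore taken to pair the samples within a tissue, a pairing that comes from the data and not from the labels, and the replicate number as a block was run as an alternative. Such a block does not widen the error of a mean level, which rests on 2 replicate series per tissue. Other alternatives were constants of 1, 16 and 100, other filters, quantile normalization, eBayes without trend, no linear time, leaving out a replicate or the 40 h or 44 h arrays, and other probe sets of a gene. With a replicate left out, the level difference was fitted with effects of time point and of tissue only. Its error then held the differences in course between the tissues, so it is not the same test on fewer arrays. The genes and lists were chosen with earlier results of these data known. Described in full are the 4 CIPK genes with the largest amplitude in each tissue, the 4 with the largest difference in rhythm, the 2 largest level differences each way, and OsCIPK10, OsCIPK23, OsCIPK24 and CBL4, whose partners are known. For other lists up to 4 genes with the smallest adjusted p are named. Further genes named with values were chosen after their values were seen. The root marker list matched no gene.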

Additional observations from a re-analysis of the deposited data

Results flagged for a closer look

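The rhythm differed between flag and seedling leaves by a test of the difference itself for 16 CIPK and 4 CBL genes, with tissue, age and growth conditions confounded. Sizes are those of the change in the fitted cosine on the log2(signal + 32) scale. The largest were those of OsCIPK06 (2.41), OsCIPK18 (1.77), OsCIPK05 (1.75), OsCIPK11 (1.64) and OsCIPK31 (1.54). OsCIPK01 (1.21), OsCIPK02 (1.21), OsCIPK23 (1.08) and OsCIPK32 (1.03) followed. Sizes under 1 were found for OsCIPK17 (0.837), OsCIPK21 (0.776), OsCIPK10 (0.734), OsCIPK08 (0.653), OsCIPK16 (0.649) and OsCIPK07 (0.63). OsCIPK12 (0.982) passed the filter on dim signals through flag leaves alone, so its size is not read as a difference between tissues. Among the sensors CBL4 (1.36), CBL9 (0.775), CBL2 (0.721) and CBL10 (0.565) differed.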

How the results depend on the processing

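Counts of CIPK genes moved by more than 1.5 times in these cases. Without 1 replicate, which leaves 1 array per time point, a seedling rhythm was called for 9 to 10 genes in place of 18 and a difference in rhythm for 7 to 9 in place of 16. The shares of all probe sets fell too, from 42.9% to 12.2% and 14.9% and from 43.2% to 13.6% and 16.4%. With no filter on dim probe sets, 5 genes in place of 8 differed between 44 h and 20 h in seedling leaves. The share of all probe sets was 15% in place of 39.4%. With the CC p adjusted by Benjamini-Hochberg, 0 genes in place of 12 were diurnal in seedling and 6 in place of 15 in flag leaves. Of all probe sets, 0.369% in place of 9.4% and 7.55% in place of 18.8% were. The level difference of OsCIPK10 turned from 0.45 to -0.56 with another of its probe sets, and that of OsCIPK07 from 0.25 to -1.48. The causes were not tested. With the replicate number as a block the counts were 18 and 21 for the rhythm in seedling and flag leaves, 16 for its difference, 19 for the level, 21 and 22 for any change over time and 12 and 0 for 44 h against 20 h. In the same order, the shares of all probe sets were 48.7% and 73.8%, 48.9%, 81.9%, 79.2% and 77.6%, and 52% and 0.556%. The calls gained were those of OsCIPK25 in flag leaves for the rhythm, of OsCIPK32 in seedling and OsCIPK25 in flag leaves for any change, and of 4 genes for 44 h against 20 h in seedling leaves. Among CBL genes the block added CBL3 in flag leaves for the rhythm, CBL6 for the level, and both in flag leaves for any change, and it changed no other CIPK or CBL call. Single CIPK genes and their alternatives were counted for both rhythms, their difference and the level only. Of these values 1057 stayed on the same side of the threshold, 77 lost the call, 9 gained it and 2 reversed. A reversal was looked for only in level differences called in the main fit, and peak times were not compared. For any change over time and for 44 h against 20 h no replicate could be left out, since no residual would remain. Signals near the array medians of 48.8 to 68.2 limit what can be said of OsCIPK20, OsCIPK30, the gene named CBL2 and CBL5, of OsCIPK12 in seedling leaves and of CBL9 in flag leaves.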
